A study of Mus musculus with 6 samples.

Results

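Myofibroblasts and matrix fibroblasts of the mouse lung were set against each other, library by library, from birth to weaning age and after neonatal oxygen exposure. The members were the cells that carried either class name in the authors' deposited annotation. There were 2125 myofibroblasts and 835 matrix fibroblasts, together 2960 of the 55882 cells with a class and of 76024 barcodes in all. Myofibroblasts are contractile cells with actin and myosin filaments. In the growing lung they lie along the alveolar ducts and at the tips of the septa that divide the air spaces, and they respond to platelet-derived growth factor through the receptor Pdgfra. Matrix fibroblasts lie in the alveolar wall, where cells expressing the transcription factor Tcf21 hold lipid and retinoid and lay down much of the interstitial matrix.

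All animals were wild-type C57BL/6N mice, and every library was made from the lungs of 3 pooled mice, sorted for live cells and sequenced with the 10x Genomics 3-prime kit. A female and a male library came from each of 3 conditions: day 1 after birth in room air (21% oxygen), day 21 in room air, and day 21 after 95% oxygen from day 1 to day 5 followed by room air. Each sex and condition had 1 library, so the sexes stood as the replicates of a condition, and p-values measure the spread between these 6 libraries. A run of 6 values below always goes in the order day 1 female, day 1 male, day 21 room air female, day 21 room air male, day 21 hyperoxia female, day 21 hyperoxia male. In that order the files held 1212, 618, 56, 98, 73 and 68 myofibroblasts. Matrix fibroblasts numbered 260, 164, 102, 58, 123 and 128. Unique molecular identifiers (UMIs, counted transcripts) were summed per library and class, giving 638806 to 9695840 UMIs per sum, and levels are UMIs of a gene per 1000000 UMIs of that sum (CPM). Among the cells of both classes, no barcode was shared in any of the 15 pairs of libraries. The authors drew the classes from these same counts, so a p-value for the class difference tells how even a difference was over libraries and is no independent evidence that the classes are distinct.

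The class names were first set beside marker genes. The lists were chosen with earlier results of these data known, so these levels are no independent evidence for the names. Summed over 22 myofibroblast markers, myofibroblasts stood at 16499 to 24212 CPM and matrix fibroblasts at 6245 to 10120 CPM. Summed over 25 matrix fibroblast markers, matrix fibroblasts stood at 10666 to 22649 CPM and myofibroblasts at 1056 to 6486 CPM. In myofibroblasts this sum was 1352 and 1056 CPM at day 1 and 5388 to 6486 CPM at day 21. There the listed marker Lum was higher in myofibroblasts than in matrix fibroblasts. Neither sum overlapped between the classes. Tcf21 had a UMI in 6.27%, 6.80%, 0%, 2.04%, 5.48% and 5.88% of myofibroblasts and in 63.7% to 89.2% of matrix fibroblasts. The 12 smooth muscle markers summed to 1113 to 1922 CPM in myofibroblasts and to 727 to 849 CPM in pericytes, the contractile cells that wrap capillaries. The 12 pericyte markers summed to 574 to 926 CPM in myofibroblasts and to 11204 to 14940 CPM in pericytes.

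Many matrix fibroblasts of day 21 also held endothelial transcripts. Cells with 10 or more UMIs of 9 endothelial markers made up 8.85% and 7.93% of matrix fibroblasts at day 1 but 52.0% (53 of 102), 44.8% (26 of 58), 48.0% (59 of 123) and 58.6% (75 of 128) at day 21. Among myofibroblasts such cells made up 3.47%, 3.07%, 0%, 3.06%, 4.11% and 14.7%. At day 21 these mixed matrix fibroblasts held 6671 to 8560 CPM of endothelial markers, against 86.3 to 129 CPM in the other matrix fibroblasts and 11654 to 11876 CPM in general capillary endothelial cells (gCap). Their matrix markers summed to 10081 to 13929 CPM, between the 28172 to 31883 CPM of the other matrix fibroblasts and the 1536 to 1909 CPM of gCap cells. The doublet caller Scrublet marked 1 to 3 of them per library. At day 1 it marked 18 of 23 and 11 of 13 such matrix fibroblasts and 40 of 42 and 18 of 19 such myofibroblasts. Among day 21 myofibroblasts it marked 3 of 3, 3 of 3 and 7 of 10 in the libraries that had such cells. Cells called mixed were thus not marked alike across classes and ages. The class label of the mixed day 21 matrix fibroblasts therefore goes with transcripts of both lineages. Values without the mixed cells of both classes are given beside many of the results below. That alternative also left out cells with 10 or more UMIs of 7 mesothelial markers, of which 5 and 13 were day 1 matrix fibroblasts of the female and male libraries, 4 were myofibroblasts of the male hyperoxia library, and the others numbered at most 2 per class and library. It kept 1170, 597, 56, 95, 69 and 55 myofibroblasts and 234, 139, 49, 31, 64 and 53 matrix fibroblasts. Endothelial transcripts were not particular to matrix fibroblasts. In pericytes the 9 endothelial markers summed to 1021 to 2408 CPM. The same filter kept 147 of 195, 76 of 108, 51 of 83, 30 of 46, 96 of 155 and 128 of 185 pericytes.

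**Figure D1:**
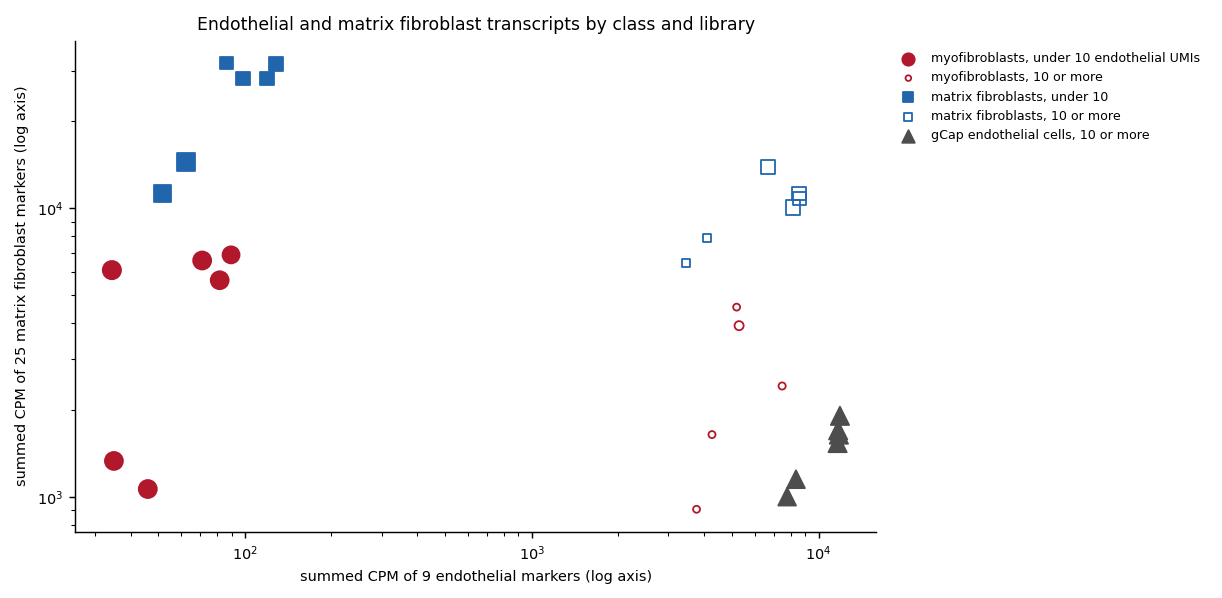
Endothelial and matrix fibroblast marker levels of the cells with and without endothelial transcripts. Each symbol is 1 library; the x axis is the summed CPM of 9 endothelial markers and the y axis the summed CPM of 25 matrix fibroblast markers, both on log axes, filled symbols are cells under 10 endothelial UMIs, open symbols cells with 10 or more, grey triangles gCap cells, and symbol size grows with the share of the class. At day 21 the open matrix fibroblast symbols lie at 6671 to 8560 CPM of endothelial markers and below the filled ones in matrix markers.

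The sex-linked transcripts matched the labels of the male libraries, in which no cell of either class had an Xist UMI, and no cell of either class in a female library had a UMI of the Y-linked gene Ddx3y. In female libraries Xist, which silences an X chromosome in female cells, had a UMI in 94.6% and 94.2% of day 1 myofibroblasts and matrix fibroblasts and in 98.2% of day 21 room air myofibroblasts. It had a UMI in 66.7% of day 21 room air matrix fibroblasts (79.6% without mixed cells). In the female hyperoxia library it had a UMI in 63.0% of myofibroblasts, 48.8% of matrix fibroblasts and 64.5% of gCap cells. A cell with no Xist UMI is not shown to lack the transcript. The median UMIs per myofibroblast were 10782.5 in the day 21 room air female library and 11042 in the female hyperoxia library. What sets the lower Xist share in the latter was not tested. Values without the female hyperoxia library are given for the genes named below whose call ended without it.

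Between the classes, 2063 of 10123 genes tested (20.4%) differed at an adjusted p under 0.05. Of these, 939 (9.28%) were higher in myofibroblasts and 1124 (11.1%) higher in matrix fibroblasts. The counts of gene lists below stand against these shares. Here and below, adjusted p-values come from edgeR's quasi-likelihood test with Benjamini-Hochberg adjustment over all genes tested, with the library as a block, and positive log2 fold changes are higher in myofibroblasts. All 6 libraries went the same way for 1824 of the 2063 genes. All 6 myofibroblast values lay above all 6 matrix fibroblast values for 316 genes (3.12% of those tested), and the reverse held for 331 (3.27%). Without mixed cells 1745 of 8532 genes (20.5%) were called, 794 (9.31%) higher in myofibroblasts and 951 (11.1%) higher in matrix fibroblasts. Of the 2063 genes, 1713 could be tested there, 1217 were called again and 1213 of these had the same sign. The markers set beside the class names are no independent evidence for them. Of 21 tested myofibroblast markers, 17 were higher in myofibroblasts and none in matrix fibroblasts. Of 25 matrix fibroblast markers, 19 were higher in matrix fibroblasts and 1, Rarres2, in myofibroblasts. With mixed cells left out, the counts were 17 and 1 (Eln) of 21, and 19 and 1 of 25. Genes named below that could not be tested without mixed cells include Kcnma1, P3h2, C7, Pdgfb, Itga3 and the endothelial markers, and Gli3 and Tpm1 were not called there. Another lineage (endothelial, immune or epithelial) held at least 4-fold more of 113 genes called higher in matrix fibroblasts and of 12 called higher in myofibroblasts. Endothelium held the most of 40 of the 113, and 2 of these 40 were called higher in matrix fibroblasts without mixed cells. Mixed cells were picked by endothelial or mesothelial markers, and a gene not testable without them counts as not called. The fall from 40 to 2 is therefore no independent result. The share over all genes tested was not counted.

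The myofibroblast side was led by Ccdc3, Cyp2e1, Csmd1, Lgr6 and Kcnma1. Ccdc3 (GRCm38 chr2:5137776-5230878, plus strand) encodes a secreted protein. It measured 83.3, 86.8, 352, 394, 284 and 204 CPM in myofibroblasts and 2.58, 0.669, 1.73, 0, 0.731 and 0.718 CPM in matrix fibroblasts. Every myofibroblast library lay above every matrix fibroblast library, and the log2 fold change was 7.13 (SE 0.44, adjusted p = 3.26e-05). Lgr6 (chr1:134983301-135105276, minus strand), a receptor for the R-spondins that strengthen Wnt signals, measured 59.0, 21.9, 407, 265, 268 and 317 CPM in myofibroblasts. In matrix fibroblasts it measured 2.15 and 4.01 CPM at day 1 and had no UMI in the 4 day 21 libraries. Its log2 fold change was 6.86 (SE 0.88, adjusted p = 0.00107). Csmd1, a large membrane protein, measured 50.1 and 40.6 CPM in day 1 myofibroblasts and 1596 to 2619 CPM at day 21, against 0.718 to 39.8 CPM in matrix fibroblasts. The gene for the potassium channel Kcnma1 had a log2 fold change of 6.41. Other genes of the leading 15 included Cyp2e1, Trim67, Cacna2d3 (a calcium channel subunit), Zfp536, Egfem1, Nrxn3, P2ry14 (a receptor for nucleotide sugars), P3h2 (a collagen prolyl hydroxylase), Pdlim3 and Cdh4 (a cadherin). Their log2 fold changes ran from 5.5 to 7.07.

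The largest differences on the matrix fibroblast side included those of Inmt, Adrb3, Tcf21 and Meox2. Inmt (chr6:55170626-55175043, minus strand), a methyltransferase, measured 299, 249, 1669, 1791, 1675 and 1876 CPM in matrix fibroblasts. In myofibroblasts it measured 0.309, 0.911, 1.57, 7.37, 3.54 and 14 CPM. The classes did not overlap, and the log2 fold change was -8.37 (SE 0.38, adjusted p = 1.06e-05). Tcf21 (chr10:22817281-22820174, minus strand) measured 1168, 748, 498, 571, 451 and 522 CPM in matrix fibroblasts and at most 11.2 CPM in myofibroblasts, a log2 fold change of -6.79 (SE 0.35, adjusted p = 1.68e-05). Meox2, a homeobox factor of mesoderm, measured 48.1 to 199 CPM in matrix fibroblasts and had no UMI in 3 of the 6 myofibroblast libraries. Its highest myofibroblast level was 3.82 CPM, and the log2 fold change was -6.76 (SE 0.44, adjusted p = 4e-05). The beta-3 adrenergic receptor gene Adrb3 had 179 UMIs in matrix fibroblasts (21.2 CPM pooled over libraries) and none in myofibroblasts. In the myofibroblast libraries 3 UMIs, the floor for a count of 0, are 0.309 to 4.70 CPM, which covers counting error only. The other genes of the leading 15 were Smim41, Brinp1, Scn3a (a sodium channel), Slc36a2 and Slc7a10 (amino acid transporters), C7 (a terminal complement component), Hsd11b1 (which activates glucocorticoids), Ccl11 (a chemokine for eosinophils), Mettl21e, Mme (a membrane peptidase) and Clec3b. Their log2 fold changes ran from -6.48 to -8.05. C7 measured 39.5 CPM in myofibroblasts of the male hyperoxia library, and 3.52 CPM there without mixed cells.

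**Figure D2:**
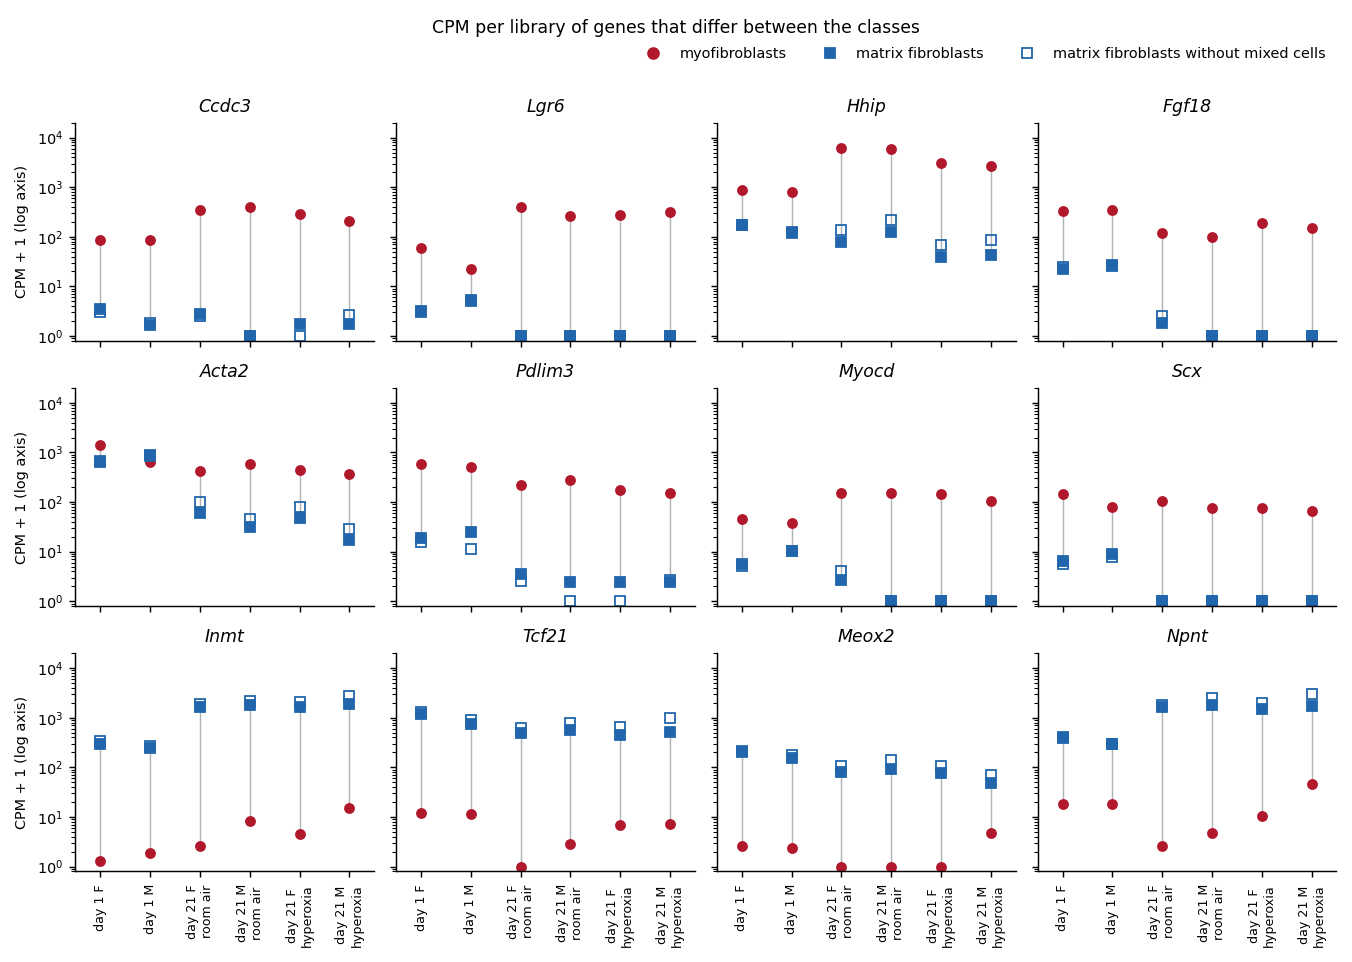
CPM per library of 12 genes that differ between the classes. The y axis is CPM plus 1 on a log axis and the x axis the 6 libraries; circles are myofibroblasts, squares matrix fibroblasts and open squares matrix fibroblasts without mixed cells. In 11 panels the classes do not overlap, and in Acta2 the day 1 male matrix fibroblasts (901 CPM) lie above the day 1 male myofibroblasts (645 CPM).

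Genes of the contractile apparatus were split between the classes. Of 30 list genes tested, 16 were higher in myofibroblasts, 5 were higher in matrix fibroblasts and 9 were not called, with a median log2 fold change of 0.50 against 0.012 over all genes. The counts without mixed cells were 15 and 5 of 30. Of 7 smooth muscle markers tested, 5 were higher in myofibroblasts and none was higher in matrix fibroblasts, with the same counts without mixed cells. Acta2 (chr19:34241090-34255590, minus strand), the smooth muscle actin by which myofibroblasts are usually recognised, measured 1388, 645, 413, 586, 435 and 371 CPM in myofibroblasts. In matrix fibroblasts it measured 653, 901, 59.7, 30.6, 46.8 and 16.5 CPM. It was higher in myofibroblasts in 5 of 6 libraries, with a log2 fold change of 2.51 (SE 0.69, adjusted p = 0.0361). Leaving out any 1 of the 4 day 21 libraries ended this call, with log2 fold changes of 2.11 to 2.43 and adjusted p from 0.0889 to 0.11. In day 21 room air female matrix fibroblasts a single cell held 66.7% of the Acta2 UMIs. Tagln, an actin-binding protein of smooth muscle, measured 2668, 2274, 750, 999, 763 and 734 CPM in myofibroblasts and 760, 1068, 265, 189, 283 and 266 CPM in matrix fibroblasts. It was higher in myofibroblasts in every library, by 1.58 on the log2 scale (SE 0.17, adjusted p = 0.00044).

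Pdlim3, a PDZ-LIM protein of the muscle Z-disc, separated the classes more widely. It measured 583, 517, 224, 276, 177 and 152 CPM in myofibroblasts and 18.0, 24.1, 2.59, 1.46, 1.46 and 1.44 CPM in matrix fibroblasts. The classes did not overlap, and the log2 fold change was 5.51 (SE 0.37, adjusted p = 4.45e-05). Smooth muscle myosin Myh11 was higher in myofibroblasts by 3.32 (SE 0.44, adjusted p = 0.0013), with 163 to 492 CPM against 7.18 to 127 CPM. Enteric smooth muscle actin Actg2 measured 759 and 672 CPM at day 1 and 37.8 to 67.3 CPM at day 21 in myofibroblasts, and its class difference was 4.23. The intermediate filament gene Des was higher by 2.78, Mustn1 by 4.73 and Synpo2 by 3.73. The coactivator Myocd (chr11:65176561-65269989, minus strand), which switches on smooth muscle genes, measured 44.8, 37.4, 153, 152, 142 and 104 CPM in myofibroblasts. In matrix fibroblasts it measured 4.72, 9.36 and 1.73 CPM in the first 3 libraries and had no UMI in the others. Its log2 fold change was 4.75 (SE 0.77, adjusted p = 0.0036). Contractile genes that were higher in matrix fibroblasts included the phosphatase inhibitor Ppp1r14a at -2.28, calponin 2 (Cnn2) at -0.97, and vinculin (Vcl), which anchors actin at adhesions, at -0.60. The Cnn2 call was lost without the female hyperoxia or the male day 21 room air library (-0.95 and -0.91), and the Vcl call without any 1 of the day 21 libraries (-0.51 to -0.61).

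Serum response factor and Myocd act together at a short motif, the CArG box. It was searched on both strands of RefSeq promoters (GRCm38.p6), in the 250 bases before each start. The windows below show the box in capitals within 30 bases for a selection of list genes called in either direction, 1 window per gene, so that exact and near matches can be read beside the direction of the call.
Acta2, chr19:34255438-34255467, minus strand, 84 bases before the start, 1 mismatch: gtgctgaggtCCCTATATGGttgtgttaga
Myl9, chr2:156775293-156775322, plus strand, 161 bases before the start, no mismatch: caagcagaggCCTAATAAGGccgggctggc
Lmod1, chr1:135324614-135324643, plus strand, 189 bases before the start, 1 mismatch: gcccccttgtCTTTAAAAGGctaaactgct
Tpm1, chr9:67049415-67049444, minus strand, 221 bases before the start, 1 mismatch: gctcgggtccCCATATATAGtcatatccac
Cnn2, chr10:79988534-79988563, plus strand, 56 bases before the start, no mismatch: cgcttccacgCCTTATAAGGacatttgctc
Vcl, chr14:20929161-20929190, plus strand, 227 bases before the start, no mismatch: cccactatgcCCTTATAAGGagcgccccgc
An exact box was found in 6 of the 29 contractile list genes with a promoter entry (20.7%) and in 439 of all 27025 genes (1.62%). With up to 1 mismatch the counts were 12 of 29 (41.4%) and 5694 of 27025 (21.1%). Among the 12 genes called higher in myofibroblasts with an entry, 1 had an exact box and 6 a box with up to 1 mismatch. Among the 5 genes called higher in matrix fibroblasts, 2 had an exact box, Cnn2 and Vcl. Of the genes printed, Myl9, Lmod1 and Tpm1 were higher in myofibroblasts, by 1.99, 2.55 and 0.58. The Lmod1 and Tpm1 calls were lost without any 1 of the day 21 libraries, at 2.23 to 2.4 and 0.45 to 0.62. Without mixed cells Tpm1 stood at 0.395 (adjusted p = 0.0849). Pdlim3 and Flna, also called, had a box with 1 mismatch, and Acta2, Myl9, Lmod1 and Tpm1 had a further one each, which are not shown. No promoter entry was matched for Tagln, Myh11, Actg2 and Csrp2.

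Matrix genes were called in both directions. Of 23 collagen genes tested, 2 were higher in myofibroblasts and 4 in matrix fibroblasts (median -0.31), and without mixed cells 1 and 7 of 21. Over all genes these shares were 9.28% and 11.1%, and the myofibroblast share of the collagens is near the former. Col12a1, which decorates collagen fibrils, was higher in myofibroblasts by 2.78, and the membrane collagens Col13a1 (-3.23) and Col23a1 (-3.00) and the basement membrane collagen Col18a1 (-2.19) were higher in matrix fibroblasts. Col1a2, a chain of the main fibrillar collagen, measured 1627, 1004, 1526, 1107, 1178 and 1925 CPM in myofibroblasts and 3291, 3064, 3866, 4940, 2357 and 1509 CPM in matrix fibroblasts. It was lower in myofibroblasts in 5 of 6 libraries (-1.18, adjusted p = 0.022). That call was lost without the male day 1, the female hyperoxia or either day 21 room air library, with -0.97 to -1.21. Its partner chain Col1a1 had a log2 fold change of -0.97 with an adjusted p of 0.062, and -1.59 (adjusted p = 0.0027) without mixed cells. It was also called by DESeq2 (-0.98), with no filter (-0.94) and without the male hyperoxia library (-1.27). Col3a1 stood at 0.53 (adjusted p = 0.38).

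Elastin itself was not called, while several genes of the elastic fibre were. Eln measured 2612, 1860, 5141, 3037, 7136 and 6428 CPM in myofibroblasts and 6889, 5541, 5890, 4560, 6449 and 4647 CPM in matrix fibroblasts. The ranges overlapped, and the log2 fold change was -0.55 (SE 0.29, adjusted p = 0.23). Without mixed cells it was -1.06 (adjusted p = 0.01). Of 21 elastic fibre genes tested, 4 were higher in myofibroblasts and 8 in matrix fibroblasts (median -0.55), and without mixed cells 3 and 9 of 19. The microfibril-associated gene Mfap4 measured 103 to 232 CPM in myofibroblasts and 3837 to 5664 CPM in matrix fibroblasts, a difference of -5.01 (SE 0.20, adjusted p = 7.1e-06). The elastin-binding Fbln5 was lower in myofibroblasts by 3.25 on the log2 scale, as were the crosslinking enzyme Lox (-1.36) and the fibrillin Fbn1 (-0.89). Fbln2 stood at -3.47, and its call was lost without any 1 of 5 libraries (all but male hyperoxia), with values of -2.70 to -3.75. The crosslinking enzyme Loxl2 (2.13) and the latent TGF-beta binding genes Ltbp2 (1.62) and Ltbp3 (1.74) were higher in myofibroblasts.

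Of 36 proteoglycan and adhesive matrix genes tested, 9 were higher in each class (median -0.10). Without mixed cells 6 were higher in myofibroblasts and 12 in matrix fibroblasts, of 34 (median -0.46). Npnt, nephronectin, and Itga8, the alpha chain of the integrin that binds it, were both higher in matrix fibroblasts. Npnt measured 387, 290, 1673, 1785, 1469 and 1712 CPM in matrix fibroblasts and 17.5, 17.3, 1.57, 3.69, 9.44 and 44.6 CPM in myofibroblasts (-6.03, SE 0.74, adjusted p = 0.00082). Itga8 measured 180, 148, 636, 587, 415 and 541 CPM in matrix fibroblasts and 1.37 to 17.7 CPM in myofibroblasts (-5.89, SE 0.31, adjusted p = 1.7e-05). In both genes every matrix fibroblast library lay above every myofibroblast library. Fibronectin, Fn1, which binds cells to collagen, measured 811 to 2283 CPM in matrix fibroblasts and 6.45 to 124 CPM in myofibroblasts (-5.02). The matrix proteins Spon1 (-6.06) and Gpc3 (-4.96), a cell surface proteoglycan, were also higher in matrix fibroblasts. Gpc3 measured 436 CPM in myofibroblasts of the male hyperoxia library and 15.9 CPM there without mixed cells. Tnc, tenascin C, an adhesion-modulating protein, was higher in myofibroblasts by 2.06 (adjusted p = 5.1e-05). Of 12 integrin genes tested, 2 were higher in myofibroblasts, Itga9 (1.83) among them, and 4 in matrix fibroblasts (median -0.15). Integrin counts without mixed cells were 1 and 2 of 9. Of 28 protease and inhibitor genes tested, 5 were higher in each class (median -0.15), and without mixed cells 4 in myofibroblasts and 10 in matrix fibroblasts, of 27 (median -0.64). They included Htra1 (2.29) and Plat, the tissue plasminogen activator (2.22), on the myofibroblast side. Serpinf1 (-3.90), a secreted member of the serpin family, and Htra3 (-1.91) were on the matrix fibroblast side.

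Genes of Hedgehog, Wnt, FGF, TGF-beta and BMP signalling were among those called. Hhip (chr8:79965851-80058006, minus strand), a membrane protein that binds Hedgehog ligands and dampens their signal, measured 891, 806, 6252, 5936, 3064 and 2684 CPM in myofibroblasts. In matrix fibroblasts it measured 174, 117, 77.0, 124, 37.3 and 41.7 CPM. The classes did not overlap, and the log2 fold change was 4.95 (SE 0.73, adjusted p = 0.00217). Of 12 Hedgehog pathway genes tested, 2 were higher in myofibroblasts, Hhip and the transcription factor gene Gli3 (1.02), and none in matrix fibroblasts (median -0.01), and without mixed cells 1 and 2 of 10. Over all genes tested 20.4% were called, and the Hedgehog count with all cells is near that share. For this list and those that follow, the shares over all genes were 9.28% higher in myofibroblasts and 11.1% in matrix fibroblasts. Gli3 was at 0.43 (adjusted p = 0.0504) without mixed cells. The pathway targets Gli1 (-0.71, adjusted p = 0.23) and Ptch1 (-0.19, adjusted p = 0.41) were not called. Without mixed cells Gli1 was called at -1.12 (adjusted p = 0.0321).

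Wnt5a (chr14:28504750-28527448, plus strand), a ligand that mostly signals without beta-catenin, measured 572, 440, 556, 423, 453 and 359 CPM in myofibroblasts and 72.1, 53.5, 51.9, 51.0, 34.4 and 35.2 CPM in matrix fibroblasts. Myofibroblasts were higher in every library, with a log2 fold change of 3.22 (SE 0.14, adjusted p = 8e-06). Wnt11, another such ligand, was higher in myofibroblasts by 3.97. Wnt2, a ligand that signals through beta-catenin, was higher in matrix fibroblasts, with 48.3 to 115 CPM against at most 12.3 CPM (-3.87, adjusted p = 0.00064). Of 33 Wnt pathway genes tested, 10 were higher in myofibroblasts and 6 in matrix fibroblasts (median 0.21), and without mixed cells 9 and 5 of 26.

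Fgf18, a ligand of the fibroblast growth factor (FGF) family made by septal mesenchyme, measured 334, 350, 116, 98.6, 190 and 148 CPM in myofibroblasts. Matrix fibroblasts held 21.0 and 25.4 CPM at day 1, 0.865 CPM in the day 21 room air female library and no UMI in the others, and the difference was 5.08 (SE 0.63, adjusted p = 0.00086). Fgf10 (chr13:118669791-118792115, plus strand), which drives epithelial branching, went the other way. It measured 0.722, 0.228, 54.8, 33.2, 41.3 and 52.2 CPM in myofibroblasts and 74.7, 50.2, 168, 122, 99.5 and 139 CPM in matrix fibroblasts (-2.72, SE 0.78, adjusted p = 0.0408). The Fgf10 call was lost without any 1 of the libraries other than day 1 female, with values of -2.29 to -3.10. The receptors Fgfr3 (-4.41) and Fgfr4 (-5.16) were higher in matrix fibroblasts. Of 20 FGF pathway genes tested, 5 were higher in myofibroblasts and 6 in matrix fibroblasts (median 0.24), and without mixed cells 3 and 5 of 18 (median -0.10).

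Of 47 TGF-beta and BMP pathway genes tested, 18 were higher in myofibroblasts and 7 in matrix fibroblasts (median 0.48), and without mixed cells 14 and 8 of 42. The ligand Tgfb3 was higher in myofibroblasts by 1.80 and the TGF-beta induced matrix protein Tgfbi by 3.89, whereas Bmper, which binds BMPs, was higher in matrix fibroblasts (-2.19). Of 16 insulin-like growth factor pathway genes tested, 7 were higher in myofibroblasts and 2 in matrix fibroblasts (median 0.52). The ligand Igf1 (2.0), the binding protein Igfbp3 (1.75) and the protease Pappa2 (4.03) were among the former. Without mixed cells the counts were 3 and 4 of 16. Of 5 genes of the PDGF pathway tested, the ligand Pdgfb alone was called, higher in matrix fibroblasts (-2.13). It could not be tested without mixed cells, and its call was lost without the female hyperoxia (-1.94) or male day 21 room air (-1.85) library. Of 13 Notch pathway genes tested, none was higher in myofibroblasts and 9 were higher in matrix fibroblasts (median -1.86), with the target Heyl at -4.35 and the receptor Notch1 at -2.25. Without mixed cells 5 of these genes could be tested and 3 were called, Heyl and Notch1 among them.

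Of 53 mesenchymal transcription factor genes tested, 14 were higher in myofibroblasts and 8 in matrix fibroblasts (median 0.24), and without mixed cells 15 and 11 of 50. Scx, scleraxis, a factor of tendon cells, measured 146, 78.6, 106, 75.6, 75.5 and 66.2 CPM in myofibroblasts. In matrix fibroblasts it measured 5.58 and 8.03 CPM at day 1 and had no UMI at day 21 (5.15, SE 0.59, adjusted p = 0.00058). Of 15 retinoid pathway genes tested, 5 were higher in matrix fibroblasts, 2 in myofibroblasts and 8 were not called (median -0.33). These counts were 4 and 2 of 13 without mixed cells. The alcohol dehydrogenase Adh1 stood at -3.91, and the retinol carrier Rbp4 at -2.74. Of 22 lipid storage genes tested, 4 were higher in myofibroblasts and 8 in matrix fibroblasts (median -0.51), and without mixed cells the same numbers of 19. Gyg, which primes glycogen synthesis, stood at -4.19 (adjusted p = 3e-06), and Plin2, the coat protein of lipid droplets, at -1.33 (adjusted p = 0.0081). Of 24 complement and chemokine genes tested, 1 was higher in myofibroblasts and 14 in matrix fibroblasts (median -1.78), and without mixed cells 0 and 15 of 20. Besides C7 and Ccl11 these included the chemokine Cxcl14 (-5.59) and the adhesion molecule Vcam1 (-5.30).

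Lists that bear on cell state and on other lineages were read from the same fit. Over all genes tested there, 9.28% were higher in myofibroblasts and 11.1% in matrix fibroblasts. Of 23 dissociation and heat shock genes tested, 9 were higher in myofibroblasts and none in matrix fibroblasts (median 0.52), with the stress factor Atf3 at 2.58, and without mixed cells 10 and 1 of 23. Of 15 cell cycle arrest and p53 target genes tested, 2 were higher in each class (median 0.04), and of 7 cell cycle genes 3 were higher in matrix fibroblasts (median -0.56). Without mixed cells these were 2 each of 14, and 1 of 3. Of 11 pericyte markers tested, 2 were higher in each class, and without mixed cells 2 in myofibroblasts and 1 in matrix fibroblasts, of 8. The potassium channel Kcnj8 was at 3.37 and Ndufa4l2 at -2.34, while the defining pericyte markers Pdgfrb (0.62, adjusted p = 0.37) and Cspg4 (1.17, adjusted p = 0.051) were not called. Cspg4 was called by DESeq2 (1.41), with no filter (1.26) and without the male day 1 library (1.60). All 9 endothelial markers were called higher in matrix fibroblasts (median -2.50), and none could be tested without mixed cells. The calls of Cdh5, Ptprb and Cldn5 among them were lost without the female hyperoxia library (-2.50, -2.58 and -2.43 there), as was that of the integrin gene Itga3 (-1.70 there). Cdh5, Ptprb and Cldn5 were also lost without the male day 21 room air library (-2.22, -2.26 and -2.41). Without the male hyperoxia library Cdh5 (-2.63) and Ptprb (-2.60) were lost too. None of the 10 immune markers was called, with or without mixed cells (median -0.54). Of 5 epithelial markers tested, 2 were higher in matrix fibroblasts (1 of 3 without mixed cells), and the 1 mesothelial marker tested was too, with and without them. The part of these transcripts in the differences of other genes was not tested.

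**Figure D3:**
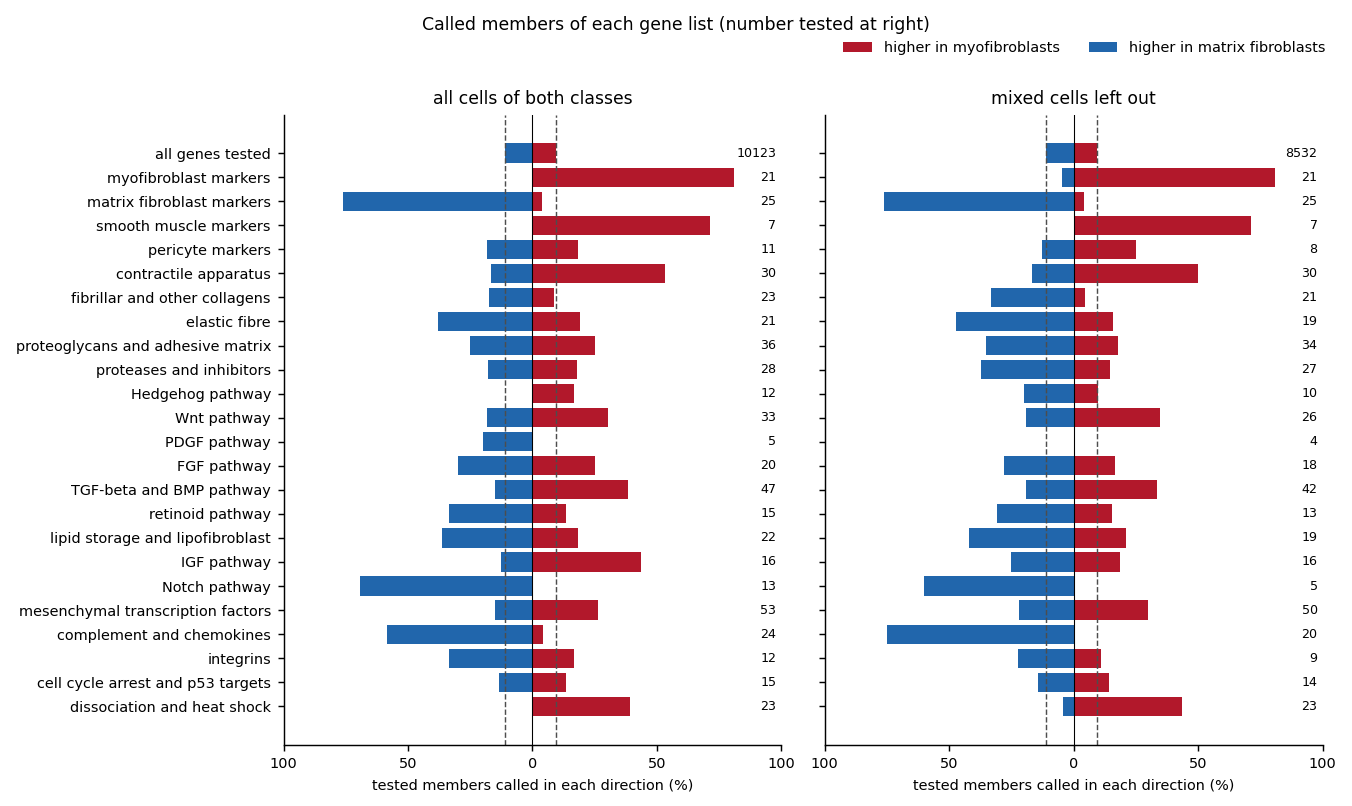
Share of each gene list called in each direction between the classes. The x axis is the percent of tested list genes called, with genes higher in myofibroblasts to the right in red and genes higher in matrix fibroblasts to the left in blue; dashed lines mark all genes tested (9.28% and 11.1% with all cells) and the number tested stands at the right. The left panel holds all cells and the right panel leaves out mixed cells; the Notch pathway goes from 13 tested genes to 5, and complement and chemokine genes are called higher in matrix fibroblasts for 14 of 24 and 15 of 20.

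The class difference itself changed with age for many genes. The age term, the class difference at day 21 in room air minus that at day 1, was called for 1220 of 10123 genes (12.1%), 539 positive (5.32%) and 681 negative (6.73%). Without mixed cells it was called for 796 of 8532 genes (9.33%), 412 positive (4.83%) and 384 negative (4.5%), and 568 of the 1220 were among them. With upper-quartile scaling and all cells the balance also turned, to 721 positive and 569 negative. Of the 1220, 265 were higher in myofibroblasts in both day 1 libraries and lower in all 4 day 21 libraries, and 197 did the reverse. Without mixed cells these counts were 144 and 152. The term was called for 657 genes without the female and 540 without the male day 1 library, and for 649 without the female and 687 without the male day 21 room air library. Day 1 and day 21 libraries also differ in the Cell Ranger version in their file headers, so the effects of age and of counting on each class cannot be told apart. Immune markers also moved with the term, 5 of 10 called positive, with and without mixed cells. In matrix fibroblasts their summed level was 2373 and 2834 CPM in the female and male day 1 libraries and 1502 and 3348 CPM in day 21 room air. In myofibroblasts it was 1201 and 924 CPM and then 670.0 and 2682 CPM. Their part in the result was not tested.

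Pdgfra (chr5:75152292-75198215, plus strand), the receptor by which myofibroblast precursors are traced, changed sides. It measured 405, 394, 76.7, 45.2, 114 and 146 CPM in myofibroblasts and 166, 144, 673, 626, 592 and 711 CPM in matrix fibroblasts. Myofibroblasts were higher at day 1 and lower in all 4 libraries of day 21. The age term was -4.75 (SE 0.23, adjusted p = 4.99e-06), or -5.03 without mixed cells. Within myofibroblasts Pdgfra fell by 2.84 on the log2 scale from day 1 to day 21 in room air, and within matrix fibroblasts it rose by 1.86. Over all 6 libraries its class difference was -1.60 (SE 0.83, adjusted p = 0.225), which DESeq2 called (-1.66, adjusted p = 0.0451). Cells with a Pdgfra UMI made up 62.2%, 51.9%, 28.6%, 17.3%, 47.9% and 45.6% of myofibroblasts and 53% to 61.8% of matrix fibroblasts.

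Nebl, a nebulin-related actin-binding protein, had an age term of -7.09 (SE 0.43, adjusted p = 1.75e-05). The term was -13.3 without the male day 21 room air library and -6.32 without the female one. It measured 71.2 and 76.1 CPM in day 1 myofibroblasts and at most 7.64 CPM at day 21, while matrix fibroblasts rose from 227 and 196 CPM to 1193 to 1713 CPM. Nrep, a regulator of cell movement, had a term of -2.96 that came with myofibroblasts, which held 1318 and 1129 CPM at day 1 and 117 to 164 CPM at day 21. Its level in matrix fibroblasts stayed between 231 and 283 CPM. The semaphorin Sema6d (-5.49) and the lipid transfer protein Pitpnc1 (-3.63) had the other leading negative terms. Sema6d measured 170 to 360 CPM in day 21 matrix fibroblasts but 6.97 to 27.6 CPM there without mixed cells, and its term was then -3.75 (adjusted p = 0.000737). The term of Pitpnc1 was -1.81 (adjusted p = 0.0184) without mixed cells. Tgfbi measured 4502, 4000, 467, 354, 369 and 339 CPM in myofibroblasts and 10.8 to 100 CPM in matrix fibroblasts, a term of -3.20 (SE 0.42, adjusted p = 0.00107).

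The leading positive terms were those of Pi15, Adamts17, Pcolce2, Ctsc and Ecrg4. Pi15, a secreted peptidase inhibitor, measured 1.24, 0.456, 343, 294, 271 and 176 CPM in myofibroblasts and 110, 170, 118, 131, 113 and 91.2 CPM in matrix fibroblasts. Myofibroblasts were lower at day 1 and higher at day 21, and the term was 8.40 (SE 0.36, adjusted p = 3.98e-06). Adamts17, a secreted metalloprotease, rose from 2.68 and 2.74 CPM to 763 to 1146 CPM in myofibroblasts and from 74.3 and 106 CPM to 413 to 588 CPM in matrix fibroblasts (term 6.08). Pcolce2, which speeds procollagen cleavage, rose from 6.81 and 3.42 CPM to 578 to 830 CPM in myofibroblasts (term 5.09), and the lysosomal protease Ctsc from 12.2 and 18.7 CPM to 201 to 275 CPM (term 4.42). Ecrg4 measured 1.14, 1.60, 141, 238, 112 and 75.2 CPM in myofibroblasts and 21.0, 87.0, 6.05, 2.91, 1.46 and 3.59 CPM in matrix fibroblasts (term 10.2, SE 0.55). Lumican, Lum, a proteoglycan that spaces collagen fibrils, measured 1.96 and 0.456 CPM in day 1 myofibroblasts and 466 to 722 CPM at day 21, against 0 to 64.9 CPM in matrix fibroblasts (term 7.68). Terms were also positive for Fgf10 (5.09), for gelsolin, Gsn, which severs actin filaments (3.39), for Hhip (3.48) and for Acta2 (3.15, adjusted p = 0.00678). The Acta2 term was 2.56 (adjusted p = 0.0674) without the male day 21 room air library.

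Over all genes the age term was positive for 5.32% and negative for 6.73%. Over lists, it was positive for 9 and negative for 5 of 21 myofibroblast markers, and positive for 8 and negative for 7 of 25 matrix fibroblast markers. Without mixed cells these were 6 and 4 of 21, and 7 and 6 of 25. Proteoglycans and adhesive matrix had 10 positive and 6 negative of 36, collagens 7 and 5 of 23, and contractile genes 8 and 5 of 30. Smooth muscle markers had 5 and 1 of 7, with and without mixed cells, and epithelial markers none and 3 of 5 (none and 2 of 3). The insulin-like growth factor pathway had 7 and 1 of 16 (3 and 3 without mixed cells), and integrins 1 and 6 of 12 (1 and 3 of 9). The balance of the adhesive matrix genes and of the collagens turned without mixed cells, to 9 and 11 of 34 and 5 and 7 of 21, and contractile genes had 5 each of 30. The TGF-beta and BMP pathway had 7 positive and 15 negative of 47, and 3 and 8 of 42 without mixed cells. The endothelial markers had 7 negative of 9 and could not be tested without mixed cells.

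**Figure D4:**
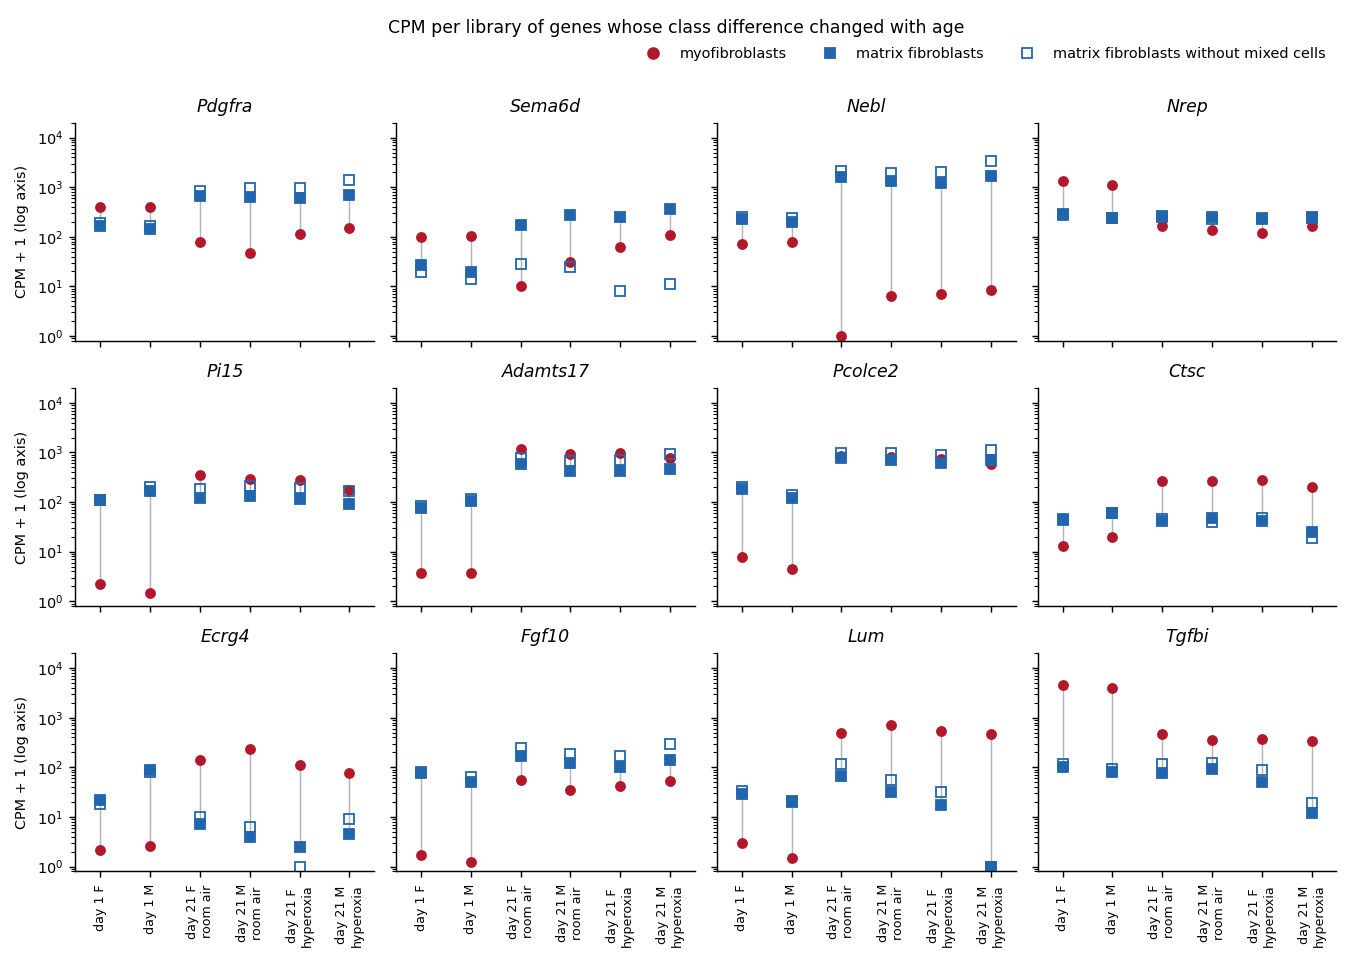
CPM per library of 12 genes whose class difference changed with age. The y axis is CPM plus 1 on a log axis and the x axis the 6 libraries; circles are myofibroblasts, squares matrix fibroblasts and open squares matrix fibroblasts without mixed cells. Pdgfra crosses from 405 and 394 CPM in day 1 myofibroblasts to 45.2 to 146 CPM at day 21, below the matrix fibroblasts, and Pi15 and Ecrg4 cross the other way.

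Within each class, day 21 and day 1 in room air differed in a large share of genes. Here too the Cell Ranger version in the file headers differs between day 1 and day 21, so effects of age and of counting cannot be told apart. Myofibroblasts had 5161 called of 10176 tested (50.7%), 2683 higher (26.4%) and 2478 lower (24.4%) at day 21. Without mixed cells 5290 of 9864 (53.6%) were called in myofibroblasts. Matrix fibroblasts had 4997 of 11240 (44.5%), 2673 higher (23.8%) and 2324 lower (20.7%), and without mixed cells 3686 of 9211 (40%). With upper-quartile scaling the balance in matrix fibroblasts turned, to 2372 higher and 2769 lower. Contractile genes were mostly lower at day 21 in both classes. Of 32 tested in myofibroblasts, 4 rose and 20 fell. Of 32 in matrix fibroblasts, 3 rose and 26 fell, with a median of -1.06 in each class. The counts without mixed cells were 4 and 20 of 32, and 2 and 22 of 28. Markers of other cell types moved beside them. In matrix fibroblasts 7 of 10 smooth muscle markers fell (3 of 5 without mixed cells), 6 of 12 pericyte markers (7 of 10), 5 of 6 mesothelial markers (none of 1) and 4 of 7 epithelial markers (none of 5). In myofibroblasts all 5 epithelial markers tested fell, as did 4 of 9 smooth muscle and 5 of 10 pericyte markers, while 4 of each of the latter lists rose. Their part in the contractile result was not tested. The myofibroblast count of called genes was 3131 without the male day 21 room air library. Acta2 fell by 1.00 on the log2 scale in myofibroblasts and by 4.28 in matrix fibroblasts. The myofibroblast fall was not called without the day 1 female (-0.41) or the day 21 room air female library (-0.46), nor by DESeq2 (-1.01, adjusted p = 0.136). Complement and chemokine genes rose more often than they fell, 12 against 2 of 18 tested in myofibroblasts and 12 against 2 of 27 in matrix fibroblasts (12 and 2 of 16, and 15 and 1 of 25, without mixed cells). Immune markers moved beside them in myofibroblasts, where 3 of 10 rose and none fell (6 rose without mixed cells). In matrix fibroblasts 1 rose and 1 fell (none and 3 without mixed cells), and the part of these transcripts was not tested. No cell cycle gene rose, and 5 of 8 fell in myofibroblasts and 6 of 12 in matrix fibroblasts. Of 23 dissociation genes 13 fell in each class, and 2 rose in myofibroblasts and none in matrix fibroblasts. In matrix fibroblasts all 9 endothelial markers rose, and 2 of 4 tested did so without mixed cells.

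H19, Dlk1, Meg3 and Plagl1, which are imprinted genes, were among the leading falls. Meg3, a noncoding RNA, fell from 1982 and 1896 CPM to 186 and 194 CPM in myofibroblasts (-3.41) and from 1788 and 1940 CPM to 164 and 153 CPM in matrix fibroblasts (-3.75). The noncoding RNA H19 measured 759 and 929 CPM in day 1 myofibroblasts and had no UMI in the day 21 room air libraries, and it fell from 211 and 396 CPM to 2.59 and 2.91 CPM in matrix fibroblasts. Dlk1, a Notch-like growth regulator, fell from 427 and 500 CPM to 0 and 1.46 CPM in matrix fibroblasts, and the zinc finger gene Plagl1 and the fatty acid carrier Fabp4 fell there by 4.59 and 5.96. In myofibroblasts calponin 1, Cnn1 (-5.65), Tgfbi (-3.45) and the noncoding RNA Dnm3os (-4.12) completed the leading falls. The leading rise was Cmss1 in both classes, by 7.42 in myofibroblasts and 7.73 in matrix fibroblasts, to 4705 to 5132 CPM at day 21 in room air. Other leading rises were 9530026P05Rik, Adamts17, Csmd1 and Pi15 in myofibroblasts and Camk1d, Ptprm, Arl15 and Gphn in matrix fibroblasts. Ptprm, a phosphatase also found in endothelium, rose by 5.29, or by 3.58 without mixed cells. In all these rises and falls age and the Cell Ranger version cannot be told apart.

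Few genes differed at day 21 between mice exposed to 95% oxygen and mice kept in room air. In myofibroblasts 34 of 10176 genes were called (0.334%), 18 higher (0.177%) and 16 lower (0.157%) after hyperoxia. In matrix fibroblasts 23 of 11240 were called (0.205%), 4 higher (0.0356%) and 19 lower (0.169%). Without mixed cells the counts were 20 of 9864 (0.203%), 7 higher (0.071%) and 13 lower (0.132%), and 10 of 9211 (0.109%), all lower. Both counts moved with single libraries. Without the day 21 room air female library 1 gene was called in myofibroblasts, without the male one 25, without male hyperoxia 141, without female hyperoxia 328, and without a day 1 library 416 or 419. In matrix fibroblasts the counts were 184, 44, 59, 224, and 92 or 104 in the same order. The part of the endothelial transcripts in these calls was not tested beyond the counts without mixed cells.

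In myofibroblasts the calls included the Hedgehog antagonist Hhip. It measured 6252 and 5936 CPM in room air and 3064 and 2684 CPM after hyperoxia, a fall of both hyperoxia libraries below both room air libraries (-1.09, adjusted p = 0.00768). The phosphodiesterase Pde10a, which breaks down cyclic nucleotides, went up from 208 and 143 CPM to 682 and 711 CPM (2.02, adjusted p = 0.00429). Hpse2, a heparanase relative without the enzyme's activity, measured 722 and 723 CPM in room air and 335 and 204 CPM after hyperoxia (-1.47, adjusted p = 0.0165). Syt1 (-2.20), a calcium sensor of vesicle release, and the collagen chain Col4a5 (-1.47) were also lower. These 5 calls held without mixed cells and were all lost without the day 21 room air female library, where Hhip stood at -1.13 (adjusted p = 0.0538) and Pde10a at 2.23 (0.0538). There Hpse2 stood at -1.81 (0.0538), Syt1 at -2.04 (0.246) and Col4a5 at -1.22 (0.241). Without the male room air library Hpse2 (-1.13) and Syt1 (-2.36) were lost as well. Hpse2 (-1.43, adjusted p = 0.1) and Col4a5 (-1.47, adjusted p = 0.0794) were also not called without the sex covariate.

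Other leading rises in myofibroblasts stood beside higher levels of endothelial and mesothelial markers after hyperoxia, and the part of either was not tested. Flt1, a VEGF receptor of endothelium, measured 3.13 and 11.1 CPM in room air and 48.4 and 122 CPM after hyperoxia, and 3.13, 1.95, 3.89 and 3.52 CPM without mixed cells. The summed endothelial markers were 34.4 and 345 CPM in room air and 650 and 1224 CPM after hyperoxia. The summed mesothelial markers were 0 and 0 CPM, then 15.3 and 686.5 CPM, and leaving out mixed cells drops cells holding either. Of the genes in this paragraph, a fit without mixed cells is given for Kitl alone. Myzap (3.16), Gpihbp1 (2.69) and Kitl (2.67) rose as well, and without mixed cells Kitl stood at -0.43 (adjusted p = 0.927). Without doublets Kitl stood at 0.485 (adjusted p = 0.884). The calls of Flt1, Myzap, Gpihbp1 and Kitl were lost without the day 21 room air female library (2.4 to 3.27) and without the sex covariate (2.59 to 3.4). Those of Flt1 (4.215), Gpihbp1 (3.67) and Kitl (3.26) were also lost without the day 21 room air male library.

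In matrix fibroblasts the complement component C3 measured 297 and 280 CPM in room air and 120 and 99.8 CPM after hyperoxia (-1.40, adjusted p = 0.0124), with an adjusted p of 0.0652 without mixed cells. Meg3 fell from 164 and 153 CPM to 63.6 and 42.4 CPM (-1.59), Csmd1 from 39.8 and 30.6 CPM to 2.19 and 0.718 CPM (-4.53) and Itm2a from 74.4 and 56.8 CPM to 24.1 and 19.4 CPM (-1.61). These 3 were called without mixed cells too. Igfbp5, a binding protein of insulin-like growth factors, measured 93.4 and 157 CPM in room air and 30.0 and 11.5 CPM after hyperoxia (-2.55), with an adjusted p of 0.0667 without mixed cells and 0.132 by DESeq2. The cell cycle inhibitor Cdkn1a measured 115 and 183 CPM in room air and 314 and 403 CPM after hyperoxia (1.28, adjusted p = 0.0209). Without mixed cells its levels were 35.2, 119, 117 and 136 CPM, and it was not called (0.85, adjusted p = 0.669). Rgcc, Pbx3 and Edil3 were the other 3 genes called higher, and none of the 4 was called without mixed cells. DESeq2 did not call Rgcc, Pbx3 or Edil3 (adjusted p from 0.165 to 0.522). Rgcc was lost without the male room air library (0.96), and Pbx3 (1.03) and Edil3 (1.19) without the female one. Without the sex covariate none of the 4 was called by edgeR (adjusted p from 0.0711 to 0.3). Edil3 was not called without doublets (1.14, adjusted p = 0.102), nor were Pbx3 (1.30) and Edil3 (1.23) in the 4 libraries of the comparison alone. Of 28 collagen genes 5 fell, and none of 24 was called without mixed cells. In myofibroblasts 2 of 23 collagen genes fell, a count that rests on all cells. Beside these counts and that of the immune markers below, the shares of all genes that fell were 0.169% in matrix fibroblasts and 0.157% in myofibroblasts. The summed immune markers of matrix fibroblasts were at 1502 and 3348 CPM in room air and 879 and 555 CPM after hyperoxia (1391 and 1304 CPM, then 500.2 and 330.3 CPM, without mixed cells). By the test 2 of the 10 fell, with or without mixed cells, and their part in the results of matrix fibroblasts was not tested.

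The difference between the classes changed with hyperoxia for 3 of 10123 genes (0.0296%), all positive, and for 815 at an unadjusted p under 0.05. Without mixed cells it was called for 5 of 8532 genes (0.0586%), all positive. Csmd1 had a term of 3.97 (SE 0.40, adjusted p = 0.0196), Meg3 of 1.87 (SE 0.22, adjusted p = 0.0454) and Sulf2, a sulfatase that edits heparan sulfate, of 4.33 (SE 0.55, adjusted p = 0.0476). Meg3 measured 186 and 194 CPM in room air and 236 and 231 CPM after hyperoxia in myofibroblasts, against the lower levels after hyperoxia in matrix fibroblasts. Sulf2 measured 3.13 and 3.69 CPM in room air and 21.2 and 24.2 CPM after hyperoxia in myofibroblasts. In matrix fibroblasts it measured 43.2 and 24.8 CPM and then 8.04 and 12.2 CPM. Sulf2 was not called without mixed cells (3.78, adjusted p = 0.166). Without doublets neither Sulf2 (4.42, adjusted p = 0.075) nor Csmd1 (3.02, adjusted p = 0.395) was, and with equal cells per class none of the 3 was. Some of these levels rest on few UMIs, since 3 UMIs are 4.70 CPM in the room air female myofibroblasts, where Sulf2 lay below that, and 2.15 CPM in the male hyperoxia matrix fibroblasts, where Csmd1 did. None of the 3 was called without the female or the male day 1, the female room air or the male hyperoxia library, and Meg3 and Sulf2 not without the male room air library. The Hhip term was 0.19 (adjusted p = 0.931). Over the libraries left out in turn the values ran from 3.39 to 4.94 for Csmd1, 1.61 to 2.15 for Meg3 and 3.88 to 4.91 for Sulf2.

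**Figure D5:**
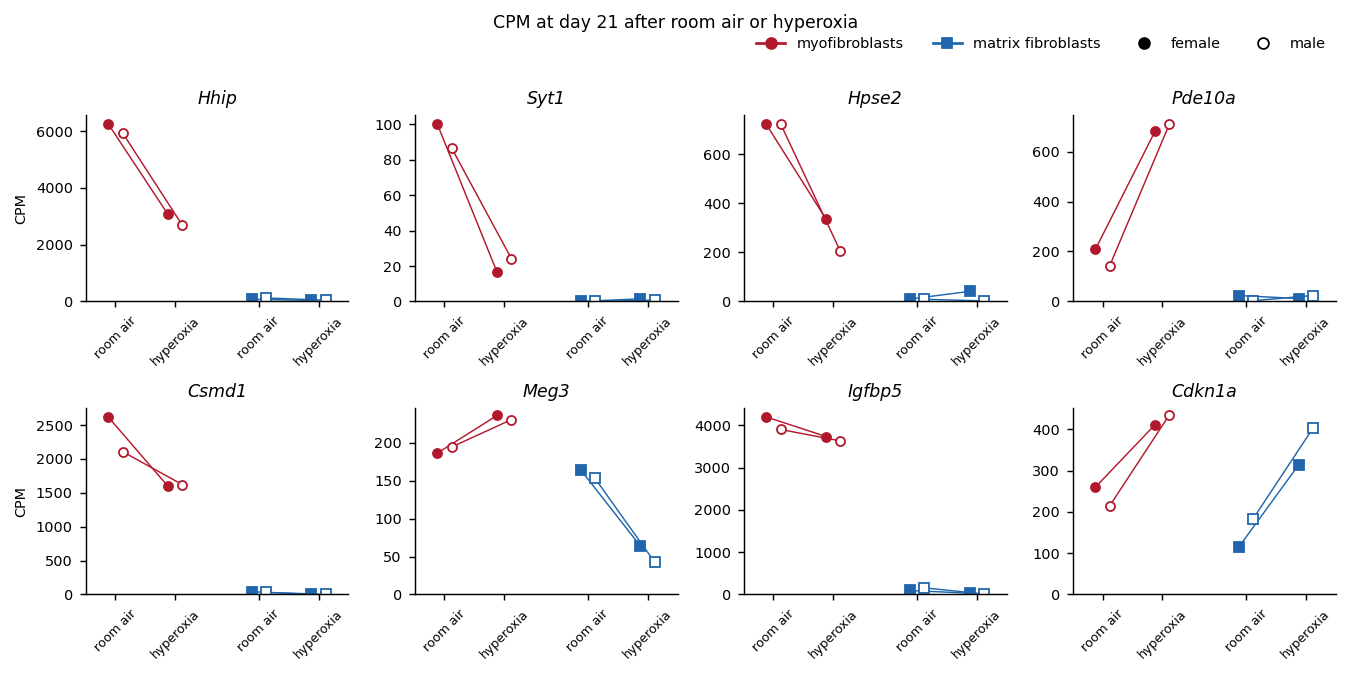
Levels of 8 genes in both classes at day 21, by oxygen exposure. The y axis is CPM on a linear axis from 0 and the x axis the class and condition; filled symbols are female libraries and open symbols male libraries. Hhip and Hpse2 are lower in myofibroblasts after hyperoxia in both sexes, and Cdkn1a is higher in matrix fibroblasts in both, a difference not called without mixed cells.

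A change of the class difference with sex was called for no gene by edgeR's quasi-likelihood test, with 417 genes at an unadjusted p under 0.05. DESeq2 also called none, with 63 at an unadjusted p under 0.05. With no filter edgeR called 72 of 21444 genes, 12 positive and 60 negative. On simulated counts the sex term recovered 38% of 2-fold and 88% of 4-fold changes. Myofibroblasts made up 82.3% and 79.0% of the cells of both classes at day 1 and 35.4%, 62.8%, 37.2% and 34.7% at day 21. The exact 95% binomial intervals were 80.3% to 84.3%, 76.0% to 81.8%, 28.0% to 43.4%, 54.7% to 70.4%, 30.5% to 44.4% and 28.1% to 41.8%, and they cover counting error only. Without mixed cells the day 21 shares were 53.3%, 75.4%, 51.9% and 50.9%. The shares are of cells that were recovered after dissociation and sorting, and what sets them was not tested. The median UMIs per cell were 6759.5 to 11042 in myofibroblasts and 7882 to 11133 in matrix fibroblasts, a mean log2 ratio of -0.047 (SD 0.127, n = 6, exact two-sided sign-flip p = 0.5, smallest possible 0.03125). Without mixed cells the ratio was -0.249 (p = 0.03125 by the same exact test).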

How the data were processed

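Single-cell UMI counts of 6 libraries, each from 3 pooled mice, were used as the authors deposited them: whole-number counts per gene and barcode, with the authors' class name for each cell. The submitters' processing notes name Cell Ranger 6.0.0, Seurat 4.1.1 and the build mm10. Per the file headers the counts were made with Cell Ranger 6.0.0 at day 1 and 7.0.1 at day 21. Whether intronic reads were counted, and how the classes were drawn, is not given in the sources used here. Library totals were 122173482 to 163649658 UMIs, and no per-sample column was left unused (0).

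Counts were summed per library and class. Genes were filtered with filterByExpr, scaled with TMM and tested with edgeR 4.0.16 (R 4.3.3, limma 3.58.1), quasi-likelihood test, Benjamini-Hochberg adjustment, threshold 0.05. Terms for age, hyperoxia and sex are interactions with class in a model with the library as a block. Both classes of a library come from the same mice and the same preparation, which is where the pairing comes from. Within a class the 6 sums were fitted with condition and sex. Log2 fold changes are edgeR's, with its prior count, and understate low genes. The SE is the size of the fold change divided by the square root of its F statistic. Shares have exact 95% binomial intervals, and the floor for a count of 0 is 3 UMIs.

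The class members and the gene lists were chosen with earlier results of these data known. Named genes were the 15 largest differences each way among called genes with 10 or more UMIs per library on the higher side and 1 direction in all 6 libraries, up to 4 called genes per list, and the 5 smallest p each way for the other terms. Mitochondrial, ribosomal and haemoglobin genes were not named, and some genes the rule takes are not reported here. Acta2, Tagln, Tnc, Col1a1, Col1a2, Itga8, Lox, Fbn1, Cnn2, Vcl, Tgfb3, Plin2 and other list genes given with values, and Lum, Gsn, Tgfbi, Fgf10, Hhip and Pdgfra in the age term, were added after their values were seen. The lists were markers of myofibroblasts, matrix fibroblasts, smooth muscle, pericytes, endothelium, immune cells, epithelium and mesothelium, and the gene groups named in the text. Coordinates and gene types come from GENCODE M21 (GRCm38), which held 32158 of the 32285 genes (99.6%).

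Alternatives were DESeq2 1.42.0, no filter, upper-quartile scaling, doublets left out (Scrublet in scanpy 1.11.5, 1.31% to 10.9% of cells with a class per library), a stricter cell filter (cells with 1000 or more genes and no more than 5% of UMIs from mitochondria), equal cells or equal depth per class (seed 1), no block, the 4 libraries of a comparison alone, no sex covariate, and each library left out in turn. Leaving out mixed cells was added after seeing the data. On simulated counts with 200 changed genes, the class fit (10123 genes) recovered 58% of 2-fold and 98% of 4-fold changes with 5 false calls. The age term recovered 20% and 80% with 2 false calls and the hyperoxia term 20% and 69% with 4. Within myofibroblasts (10176 genes) the hyperoxia fit recovered 48% and 87%, and within matrix fibroblasts (11240 genes) 40% and 84%. The simulation set the spread of a gene by its level alone, with no outlying libraries. These figures therefore do not cover gene-specific spread or the swings seen with single libraries.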

Additional observations from a re-analysis of the deposited data

Results flagged for a closer look

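The class difference was not the same at both ages for 1220 genes, by the test of the age interaction itself. The genes of the text that met this were Pdgfra (-4.75), Nebl (-7.09, or -13.3 without the male day 21 room air library), Nrep (-2.96), Sema6d (-5.49), Pitpnc1 (-3.63) and Tgfbi (-3.20), whose difference moved toward matrix fibroblasts. It moved toward myofibroblasts for Pi15 (8.40), Adamts17 (6.08), Pcolce2 (5.09), Ctsc (4.42), Ecrg4 (10.2), Lum (7.68), Fgf10 (5.09), Hhip (3.48), Gsn (3.39) and Acta2 (3.15), all as differences of log2 fold changes. The interaction with hyperoxia was called for 3 genes, Csmd1 (3.97), Meg3 (1.87) and Sulf2 (4.33). The Sulf2 call was lost without mixed cells (3.78, adjusted p = 0.166) and without doublets (0.075), and the Csmd1 call without doublets (3.02, adjusted p = 0.395). With equal cells, and with several of the libraries left out, none of the 3 was called. No group had the 4 samples that a test for a sample far from the others needs.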

How the results depend on the processing

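The count of genes that differed between the classes stayed within 1.5 times of 2063 under every alternative but the fit without the library as a block, which called 1057. It ran from 1463 to 1938 with a library left out. The age term was called for 670 genes by DESeq2, 1893 with no filter, 796 without mixed cells and 780 with equal cells, and for 540 to 1375 with a library left out. Upper-quartile scaling moved the median age term by 0.137 and the positive share of its calls from 44.2% to 55.9%, and the matrix fibroblast age median by -0.126. The hyperoxia term gave 11 genes by DESeq2, 278 with no filter, 5 without mixed cells, 1 without doublets, 0 with equal cells and 0 in its 4 libraries alone (3 in the model of all 6), and 0 to 105 with a library left out, 105 without female hyperoxia. The sex term gave 72 with no filter. DESeq2 called 3434 genes for age in myofibroblasts and 2633 in matrix fibroblasts, and leaving out a library gave 3131 to 5914 and 3600 to 5473.

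Hyperoxia in myofibroblasts gave 60 genes by DESeq2, 445 with no filter, 20 without mixed cells, 75 with upper-quartile scaling, 11 without doublets, 348 in its 4 libraries alone, 4 without the sex covariate and 1 to 419 with a library left out. Calls there were higher after hyperoxia in 52.9%, and in 65.3% with upper-quartile scaling and 63.3% by DESeq2. Matrix fibroblasts gave 11, 284 and 10 under the first 3 of these, 15 in the 4 libraries, 8 without the covariate and 44 to 224 with a library left out. Kitl reversed in myofibroblasts without mixed cells (-0.43), and Col3a1, which was not called, did so between the classes (-0.054). The ratio of UMIs per cell was called with the stricter cell filter (-0.125) and without mixed cells (-0.249) and ran from -0.075 to 0 with a library left out. Without mixed cells the day 21 myofibroblast shares moved to 53.33%, 75.4%, 51.88% and 50.93%. No list's called genes changed sign under upper-quartile scaling or DESeq2.

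A fit with 1 library left out leaves a condition with 1 library, which is then assumed to vary like the others. Myofibroblasts and matrix fibroblasts numbered at least 56 cells in each library, so leaving out libraries under 50 cells of either class changed nothing. Without mixed cells the day 21 room air matrix fibroblasts numbered 49 and 31, and pericytes, given as levels alone, numbered 46 in the male day 21 room air library. The fewest UMIs in a sum were 638806, where 3 UMIs are 4.70 CPM, and a level below that in such a sum rests on under 3 UMIs.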
